A study of Mus musculus with 14 samples.

Results

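Small leucine-rich proteoglycans (SLRPs) are secreted proteins of the extracellular matrix (ECM) whose leucine-rich repeats bind collagen. Expression of 10 SLRP genes of the heart (Fmod, Lum, Dcn, Bgn, Aspn, Prelp, Omd, Ogn, Ecm2 and Podn) was followed on the microarrays of mice lacking the chemokine receptor CXCR5 and of wild type (WT) mice. The genes were chosen by name, with earlier results of these data known. The shares of all genes given beside their counts are therefore descriptions, not tests. Each gene was represented by 1 probe set, so that 10 of the 19919 genes measured are described. Every member was measured and each had a single probe set that carried its symbol alone, so none was lost to a filter.

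Left ventricles of male mice were profiled 3 weeks after surgery on 14 Affymetrix mouse ST 1.0 arrays, each hybridised with RNA of 1 mouse. The groups were CXCR5-/- mice after aortic banding (AB, n = 4), WT mice after AB (n = 4), CXCR5-/- Sham mice (n = 3) and WT Sham mice (n = 3). AB narrows the aorta above the heart, so that the left ventricle pumps against a raised pressure, and Sham mice went through surgery with no band. CXCR5-/- mice carry a systemic knockout on a C57BL/6 background, not limited to a cell type, and the sources used here give no age for the mice. All values are log2 expression after robust multi-array average (RMA), on which a difference of 1 is a doubling.

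SLRPs sit on the surface of collagen fibrils, where they set the diameter and spacing of the fibrils and hold growth factors of the TGF-beta family near the cell. Among the class I members (Dcn, Bgn, Aspn and Ecm2), Dcn and Bgn carry chondroitin or dermatan sulfate chains. Class II members (Fmod, Lum, Prelp and Omd) tend to carry keratan sulfate, and Ogn and Podn belong to classes III and V. In the heart they are made chiefly by fibroblasts, and the fibrillar matrix that they organise grows when the ventricle works against a high pressure. Type I collagen, whose alpha 1 chain is encoded by Col1a1, is the main fibril that they coat.

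Some SLRP genes lie side by side in the genome. In the RefSeq annotation (GRCm38.p6) no protein-coding gene separates Ecm2, Aspn, Omd and Ogn on chromosome 13, Prelp and Fmod on chromosome 1, or Dcn and Lum on chromosome 10, whereas Bgn (X) and Podn (4) have no SLRP neighbour. Dcn and Lum share their stretch with Kera and Epyc, and Prelp and Fmod share theirs with Optc. A promoter window was found in the RefSeq table for 8 of the 10 members, that is for all but Dcn and Lum. The 250 bases before the transcription start are shown for the 4 neighbours on chromosome 13, which lie side by side, for Fmod, which had the largest response to AB of the 10, and for Bgn, which followed Col1a1 most closely. Capitals mark matches on either strand to TATAAA (the core of the promoter element that binds TBP), to CCAAT (bound by the factor NFY), to GGGCGG (bound by Sp1), to TGANTCA (bound by AP-1), to CAGAC (bound by SMAD proteins) or to GGAATG (bound by TEAD proteins).
Ecm2 (chr13:49504560-49504809, plus strand): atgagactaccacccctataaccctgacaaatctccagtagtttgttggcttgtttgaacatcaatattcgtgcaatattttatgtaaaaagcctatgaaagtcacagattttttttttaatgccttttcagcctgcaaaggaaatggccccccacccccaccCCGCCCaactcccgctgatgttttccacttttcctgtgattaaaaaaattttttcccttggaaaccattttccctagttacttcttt
Aspn (chr13:49544193-49544442, plus strand): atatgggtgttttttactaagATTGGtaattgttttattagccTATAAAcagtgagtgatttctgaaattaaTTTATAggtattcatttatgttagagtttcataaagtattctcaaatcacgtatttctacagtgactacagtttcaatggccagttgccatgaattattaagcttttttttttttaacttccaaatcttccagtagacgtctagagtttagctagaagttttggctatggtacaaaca
Omd (chr13:49582212-49582461, plus strand): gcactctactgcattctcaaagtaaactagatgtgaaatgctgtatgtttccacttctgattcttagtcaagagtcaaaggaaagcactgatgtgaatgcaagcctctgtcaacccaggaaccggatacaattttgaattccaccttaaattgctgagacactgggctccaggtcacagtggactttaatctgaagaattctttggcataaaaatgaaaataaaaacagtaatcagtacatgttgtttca
Ogn (chr13:49607765-49608014, plus strand): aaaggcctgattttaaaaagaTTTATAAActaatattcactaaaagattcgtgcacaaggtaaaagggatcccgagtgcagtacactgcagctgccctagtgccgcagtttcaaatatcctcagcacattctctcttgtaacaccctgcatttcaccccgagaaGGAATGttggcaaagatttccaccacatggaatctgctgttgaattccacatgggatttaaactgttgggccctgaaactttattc
Fmod (chr1:134037004-134037253, plus strand): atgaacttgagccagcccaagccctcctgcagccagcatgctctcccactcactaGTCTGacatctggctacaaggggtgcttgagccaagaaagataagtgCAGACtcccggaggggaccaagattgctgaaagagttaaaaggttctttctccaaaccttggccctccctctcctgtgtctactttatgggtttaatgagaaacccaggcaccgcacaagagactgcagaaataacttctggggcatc
Bgn (chrX:73483351-73483600, plus strand): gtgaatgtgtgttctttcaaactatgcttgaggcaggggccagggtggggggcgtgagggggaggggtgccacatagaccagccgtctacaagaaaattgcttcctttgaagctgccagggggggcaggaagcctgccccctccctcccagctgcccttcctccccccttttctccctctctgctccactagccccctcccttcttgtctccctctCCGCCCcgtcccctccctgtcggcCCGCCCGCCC

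The chromosome 13 windows were poor in G and C, with 30% for Aspn, 38.4% for Omd, 40.0% for Ecm2 and 42.0% for Ogn, against a median of 52.4% over all 32851 windows. The first window of the other members held 51.2% (Fmod), 55.6% (Prelp), 64.4% (Bgn) and 78.0% (Podn). Aspn and Ogn each had 2 matches to TATAAA, which on Ogn overlap on opposite strands, and 12.4% of all windows held one. Fmod had 2 matches to CAGAC (42.2% of all windows), Bgn had 3 to GGGCGG of which 2 overlap (32.7% of all windows), and Ecm2 had 1 to GGGCGG. Aspn also matched CCAAT once (33.8% of all windows) and Ogn matched GGAATG once (12.6% of all windows), and none of the 6 motifs was found in the Omd window. No member window held TGANTCA, which 6.7% of all windows hold, and no motif overlapped another. These matches describe the letters only.

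The arrays were checked before the groups were compared. Correlations between arrays lay between 0.975 and 0.993 over all probe sets. The Cxcr5 probe set read 4.43, 4.47, 3.97 and 4.21 in CXCR5-/- AB hearts and 3.30, 3.03, 3.30 and 3.18 in WT AB hearts. It read 4.09, 4.11 and 3.85 in CXCR5-/- Sham hearts and 3.23, 3.23 and 3.24 in WT Sham hearts, so all 7 arrays labelled CXCR5-/- were higher. Whether this probe set lies inside the disrupted part of the gene is not known here, so it checks no label, and CXCR5-/- below stands for arrays labelled so. Myl7, the light chain of atrial myosin, was high in 2 of the CXCR5-/- Sham hearts (9.68 in replicate 1, 8.82 in replicate 2) and in WT Sham replicate 1 (9.09), while the remaining 11 hearts read 5.65 to 7.49. For AB against Sham the counts of called members are given with and without these 3 arrays, as are values of some members. CXCR5-/- AB replicate 4 stood apart in another atrial gene, Bmp10, an atrial growth factor, which read 6.78 there and 3.02 to 3.32 on the 13 other arrays, and its mean over 4 atrial genes (Myl7, Sln, Myl4 and Bmp10) was the highest of all (7.45, against 7.36 on CXCR5-/- Sham replicate 1). Alb, the gene of serum albumin and the only measured marker of liver or blood, ran from 3.98 to 9.73 over the arrays. The part of these markers in the SLRP results was not tested.

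After pressure overload 9 of the 10 SLRP genes rose in CXCR5-/- hearts and 6 of 10 in WT hearts, and none fell in either genotype (5.86% of all genes fell in CXCR5-/- and 4.22% in WT hearts). In CXCR5-/- hearts the 9 genes were Fmod, Aspn, Lum, Prelp, Bgn, Ecm2, Omd, Dcn and Ogn, while 8.28% of all genes tested rose at an adjusted p under 0.05. In WT hearts Fmod, Aspn, Lum, Bgn, Prelp and Ecm2 rose, against 5.1% of all genes. Dcn, Omd and Ogn missed the adjusted threshold there. Still, 9 of the 10 members had a limma 95% interval above 0 in WT hearts. Of all genes 21.1% had an unadjusted limma p under 0.05 there, in either direction. The median log2 difference of the 10 members was 1.01 in CXCR5-/- and 0.76 in WT hearts, against medians of -0.01 and 0.01 over all genes. With the genotypes averaged 9 of 10 rose (12.3% of all genes), with a median of 0.89. Without the 3 Sham arrays of high Myl7, which leaves 1 CXCR5-/- Sham array whose spread is taken to be that of the other groups, 6 of 10 rose in CXCR5-/- hearts (2.72% of all genes), 6 in WT hearts (3.89%) and 9 with the genotypes averaged (8.18%). Without CXCR5-/- AB replicate 4 the counts were 9, 7 and 9, while 1573, 1004 and 2428 of all 19919 genes rose. In heart tissue, more cells of a type and more RNA per cell cannot be told apart.

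**Figure D1:**
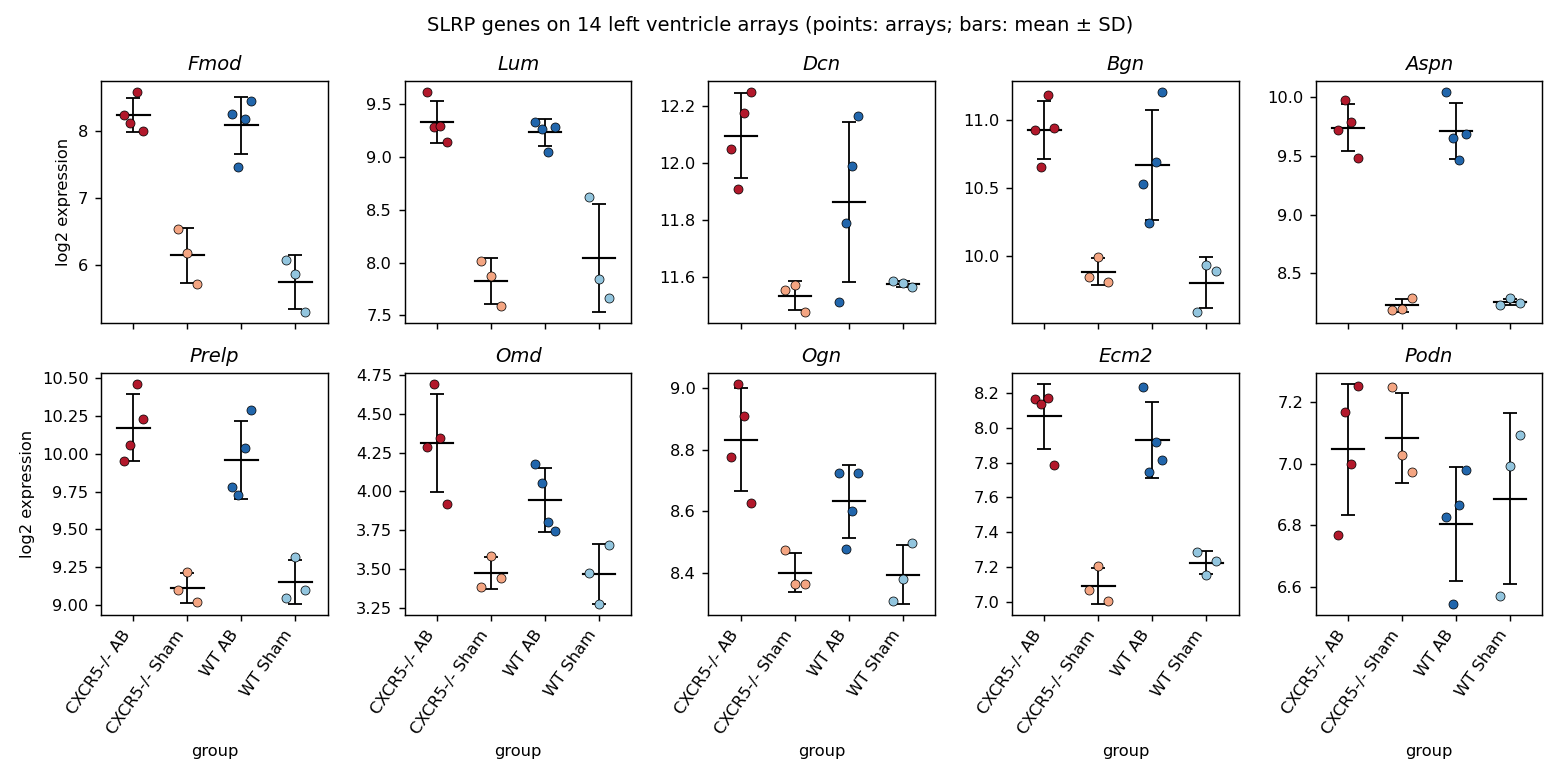
Log2 expression (vertical axes, each with its own range) of the 10 SLRP genes in the 4 groups, with 1 point per array, a line at the group mean and bars of ± SD (n = 4 AB, n = 3 Sham). AB arrays stand clear of the Sham arrays of the same genotype for Fmod, Lum, Bgn, Aspn, Prelp, Omd and Ecm2, for Dcn and Ogn only in CXCR5-/- hearts, and for Podn in neither.

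Fibromodulin (Fmod, probe set 10349947), which binds type I collagen and steers the maturation of fibrils, had the largest response of the 10. It read 8.24, 8.12, 8.58 and 8.001 in CXCR5-/- AB hearts and 6.53, 6.18 and 5.72 in CXCR5-/- Sham hearts. In WT mice it read 8.25, 7.46, 8.18 and 8.44 after AB and 6.08, 5.86 and 5.30 after Sham. No AB array overlapped a Sham array, and WT AB replicate 2 was the lowest after AB. The log2 difference was 2.09 ± 0.23 (SE) in CXCR5-/- hearts, or 4.26-fold with a 95% interval of 3.04 to 5.96 (adjusted p = 1.02e-05). It was 2.34 ± 0.23 in WT hearts, or 5.06-fold with an interval of 3.62 to 7.08 (adjusted p = 6.78e-06). By size of the difference Fmod ranked 20th of all genes in CXCR5-/- and 8th in WT hearts.

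Asporin (Aspn, probe set 10405047), a class I protein with a run of aspartate residues and usually no sugar chain, had the largest difference relative to its error in both genotypes. CXCR5-/- hearts read 9.72, 9.97, 9.79 and 9.49 after AB and 8.19, 8.20 and 8.29 after Sham. WT hearts read 10.04, 9.65, 9.47 and 9.69 after AB and 8.23, 8.29 and 8.25 after Sham. The 6 Sham arrays thus lay between 8.19 and 8.29, and the lowest AB array lay at 9.47. The differences were 1.51 ± 0.12 in CXCR5-/- (2.86-fold, adjusted p = 4.93e-07) and 1.46 ± 0.12 in WT hearts (2.75-fold, adjusted p = 1.71e-06), which gave Aspn the smallest adjusted p of the members in both.

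Lumican (Lum, probe set 10365983), a class II proteoglycan that keeps collagen fibrils apart, read 9.61, 9.28, 9.29 and 9.14 in CXCR5-/- AB hearts and 8.02, 7.88 and 7.59 in CXCR5-/- Sham hearts. It read 9.33, 9.26, 9.05 and 9.28 in WT AB hearts and 8.62, 7.84 and 7.67 in WT Sham hearts. WT Sham replicate 1, an array of high Myl7, was the highest Sham array, and it still lay below every AB array. Lum rose by 1.503 ± 0.18 in CXCR5-/- (2.83-fold, adjusted p = 2.24e-05) and by 1.19 ± 0.18 in WT hearts (2.27-fold, adjusted p = 3.77e-04). Without the 3 Sham arrays of high Myl7 the differences were 1.74 and 1.47, both still past the threshold.

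Biglycan (Bgn, probe set 10600169), a relative of decorin that carries a pair of sugar chains and, once released, engages Toll-like receptors, read 10.92, 10.66, 11.18 and 10.94 in CXCR5-/- AB hearts and 9.84, 9.997 and 9.81 in CXCR5-/- Sham hearts. WT hearts read 10.53, 10.24, 10.69 and 11.20 after AB and 9.59, 9.93 and 9.89 after Sham. The groups did not overlap, and the WT AB arrays spread widely, with replicate 2 lowest and replicate 4 highest. Bgn rose by 1.04 ± 0.17 in CXCR5-/- (2.05-fold, adjusted p = 4.90e-04) and by 0.86 ± 0.17 in WT hearts (1.82-fold, adjusted p = 0.00352).

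Prelp (probe set 10357870), whose basic end binds heparan sulfate, and Ecm2 (probe set 10405033), a matrix protein related to decorin, rose in both genotypes. Prelp spanned 9.95 to 10.46 in CXCR5-/- AB and 9.73 to 10.29 in WT AB hearts, and 9.02 to 9.22 in CXCR5-/- Sham and 9.04 to 9.32 in WT Sham hearts. Its differences were 1.06 ± 0.14 in CXCR5-/- (adjusted p = 5.86e-05) and 0.81 ± 0.14 in WT hearts (adjusted p = 0.00116). Ecm2 spanned 7.79 to 8.17 in CXCR5-/- AB and 7.75 to 8.24 in WT AB hearts, and 7.002 to 7.20 in CXCR5-/- Sham and 7.16 to 7.29 in WT Sham hearts. It differed by 0.97 ± 0.12 in CXCR5-/- (adjusted p = 3.42e-05) and by 0.70 ± 0.12 in WT hearts (adjusted p = 0.00110). Neither gene had an AB array within its Sham range.

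Osteomodulin (Omd, probe set 10405058), a class II proteoglycan first described in bone, was the dimmest member and lay below the 30th percentile of all probe sets. It read 4.29, 4.69, 4.35 and 3.92 in CXCR5-/- AB hearts and 3.38, 3.58 and 3.44 in CXCR5-/- Sham hearts. In WT hearts it read 4.18, 4.05, 3.80 and 3.75 after AB and 3.47, 3.27 and 3.65 after Sham, so the lowest AB array stood just above the highest Sham array. Omd rose in CXCR5-/- hearts by 0.84 ± 0.15 (adjusted p = 0.00101), and in WT hearts the difference of 0.48 ± 0.15 missed the threshold (adjusted p = 0.0584). That call in WT hearts turned with the setting, with an adjusted limma p of 0.00601 under array weights and a q of 0.0400 by significance analysis of microarrays. With replicate number as a block the adjusted limma p was 0.00821, but the numbers are not shown to pair arrays.

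Decorin (Dcn, probe set 10365974), which carries a single sugar chain, decorates collagen and binds TGF-beta, and osteoglycin (Ogn, probe set 10405063), a small class III member, rose by less. Dcn read 12.05, 11.91, 12.18 and 12.25 in CXCR5-/- AB hearts and 11.56, 11.57 and 11.48 in CXCR5-/- Sham hearts. WT AB hearts read 11.51, 11.79, 11.99 and 12.17 and WT Sham hearts 11.59, 11.58 and 11.57. WT AB replicate 1 thus lay below all 3 WT Sham arrays, while the other WT AB arrays lay above them. The difference was 0.56 ± 0.13 in CXCR5-/- hearts (1.48-fold, adjusted p = 0.00516) and 0.29 ± 0.13 in WT hearts (1.22-fold, adjusted p = 0.189). Without WT AB replicate 1 the WT difference was 0.41 and passed (adjusted p = 0.0353).

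Ogn read 8.78, 9.01, 8.91 and 8.63 in CXCR5-/- AB hearts and 8.47, 8.36 and 8.36 in CXCR5-/- Sham hearts, without overlap. In WT hearts it read 8.72, 8.48, 8.60 and 8.73 after AB and 8.31, 8.38 and 8.50 after Sham, where the groups overlapped by 1 array. Its differences were 0.43 ± 0.10 in CXCR5-/- (adjusted p = 0.00773) and 0.24 ± 0.10 in WT hearts (adjusted p = 0.180). Without the 3 Sham arrays of high Myl7 the CXCR5-/- calls of Dcn (0.62, adjusted p = 0.122), Omd (0.87, adjusted p = 0.0684) and Ogn (0.47, adjusted p = 0.131) were lost. With the genotypes averaged Dcn (0.43 ± 0.09, adjusted p = 0.00176), Ogn (0.33 ± 0.07, adjusted p = 0.00229) and Omd (0.66 ± 0.11, adjusted p = 2.01e-04) all passed.

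Podocan (Podn, probe set 10514939), the class V member, was the exception. It read 6.77, 7.17, 6.998 and 7.25 in CXCR5-/- AB hearts and 7.25, 7.03 and 6.97 in CXCR5-/- Sham hearts. In WT hearts it read 6.83, 6.55, 6.87 and 6.98 after AB and 6.57, 6.99 and 7.09 after Sham. AB and Sham arrays overlapped in both genotypes, and the differences were -0.04 ± 0.14 in CXCR5-/- (adjusted p = 0.913) and -0.08 ± 0.14 in WT hearts (adjusted p = 0.83). With the genotypes averaged the 95% interval ran from 0.83-fold to 1.11-fold, which leaves out the estimates of the other 9 members, the lowest of which was 1.26-fold (Ogn).

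In CXCR5-/- hearts no AB array overlapped a Sham array for 9 members (13.8% of all genes were higher without overlap), and in WT hearts this held for 7 (9.39% of all genes). The other SLRP genes were not seen to follow. Kera, Epyc, Optc, Chad, Chadl, Nyx and Podnl1 were measured, and limma called 0 of these 7 higher or lower in either genotype. Their median log2 differences were -0.09 in CXCR5-/- and 0.02 in WT hearts. Of these genes Kera, Optc, Podnl1, Epyc and Chadl were dim, at the 21.8th to 39.0th percentile of all probe sets, where a change can be missed. Kera, the keratocan gene next to Lum, was not called in either genotype alone, and it fell by 0.22 with the genotypes averaged (adjusted p = 0.0384). Tsku was not analysed here.

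The genotypes were then compared, to ask whether loss of CXCR5 alters SLRP expression. After AB all 10 members were on average higher in hearts labelled CXCR5-/- than in WT hearts, by 0.03 (Aspn) to 0.37 (Omd) with a median of 0.21, and none passed the test. Of all genes 49.3% were higher and 0.0452% were called in either direction. Omd (0.37, 95% interval 0.07 to 0.66, adjusted p = 0.694) and Ogn (0.20, interval 0.00 to 0.40, adjusted p = 0.839) were the 2 members at an unadjusted p under 0.05, as were 5.94% of all genes. Significance analysis of microarrays also called 0 of the 10. CXCR5-/- and WT arrays overlapped for every member (1.63% of all genes were higher and 1.49% lower without overlap), and the members share these 8 arrays, so their 10 signs are not separate observations. Without CXCR5-/- AB replicate 4, limma called 34 genes between the genotypes after AB and no member.

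Dcn was 0.23 higher in CXCR5-/- AB hearts (interval -0.01 to 0.48), Bgn 0.26 (-0.08 to 0.59), Podn 0.24 (-0.03 to 0.52) and Prelp 0.21 (-0.06 to 0.49). The average excess of Fmod was 0.15 (interval -0.30 to 0.60), and it turned to -0.06 without WT AB replicate 2. Aspn, at 0.03 (interval -0.22 to 0.27), turned to -0.05 without CXCR5-/- AB replicate 2 or WT AB replicate 3. With replicate number as a block 21 genes in place of 9 were called between the genotypes after AB, and still no member. Within the 4 same-numbered pairs Omd (0.11, 0.64, 0.55 and 0.17) and Dcn (0.54, 0.12, 0.19 and 0.08) were higher in the CXCR5-/- heart each time, as were 7.19% of all genes, and the other 8 members were higher in 2 or 3 of 4 pairs. The blocked difference was 0.37 ± 0.12 for Omd (adjusted p = 0.359) and 0.23 ± 0.10 for Dcn (adjusted p = 0.569).

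After Sham 5 of the 10 members were higher in CXCR5-/- hearts (52.4% of all genes) and 5 lower, and none reached an unadjusted p under 0.05 (2.38% of all genes did and 0.0402% were called). Fmod differed most, at 0.40 (95% interval -0.12 to 0.92), and Lum was at -0.22 (-0.62 to 0.18). For the response to AB itself limma called a genotype difference for 0 of the 10 members (0% of all genes), and 0 reached an unadjusted p under 0.05, as 2.88% of all genes did. For Fmod the CXCR5-/- response minus the WT response was -0.25 (interval -0.93 to 0.44). The other 9 were between 0.04 (Podn) and 0.36 (Omd, interval -0.09 to 0.82), with 48% of all genes above 0. The intervals are wide enough to hold, for Omd, a response in CXCR5-/- hearts 1.76 times that in WT hearts or one 0.94 times as large.

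**Figure D2:**
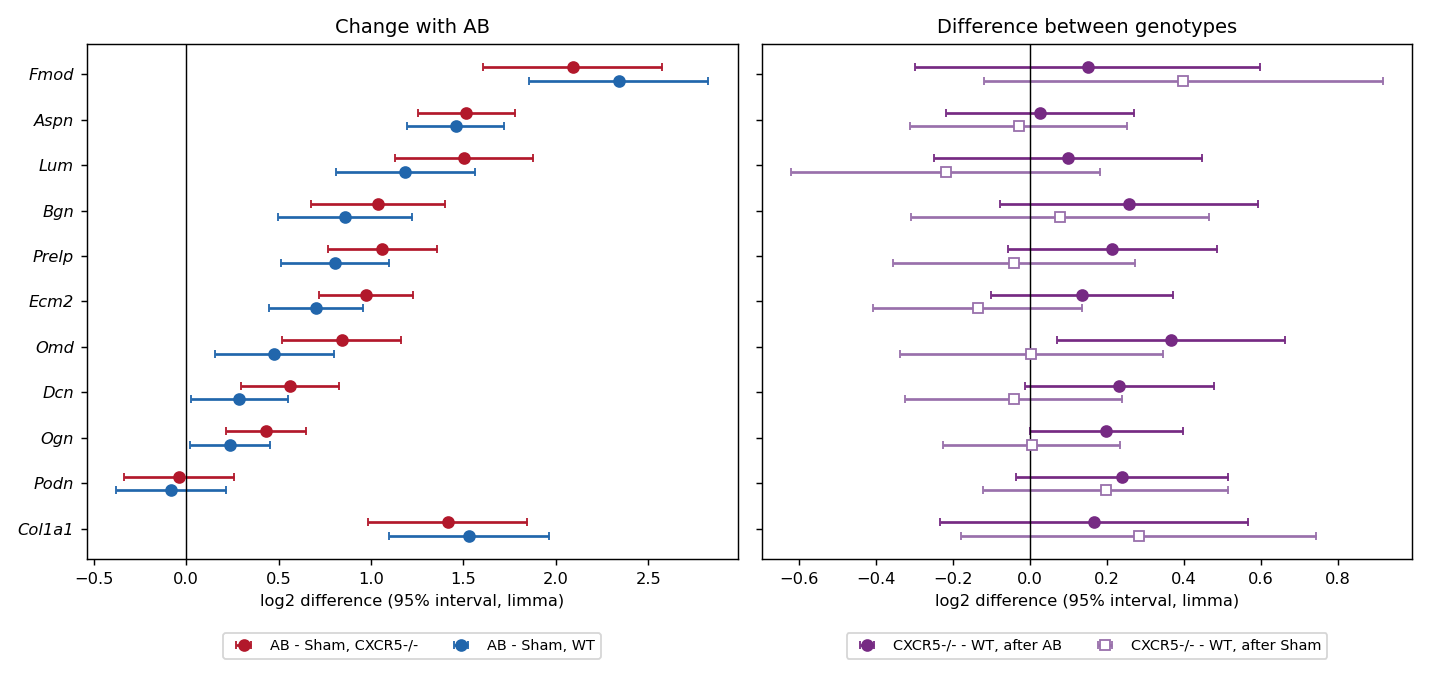
Left, log2 differences of AB minus Sham in CXCR5-/- and WT hearts, and right, CXCR5-/- minus WT after AB and after Sham, for the 10 SLRP genes and Col1a1, with 95% intervals from limma. Fmod has the largest response (2.09 in CXCR5-/- and 2.34 in WT hearts), Podn lies near 0 in both, and of the genotype differences only those of Omd and Ogn after AB have an interval above 0.

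Genes that build, cut or respond to SLRPs were examined next. With the genotypes averaged 22.8% of all genes passed in either direction, and the few that fell are named because of their number, after their values were seen. Of 11 fibrillar collagens 5 rose in CXCR5-/- hearts, 6 in WT hearts and 6 with the genotypes averaged, with a median averaged difference of 0.39. Col1a1 rose by 1.47 ± 0.14, Col3a1 (type III collagen) by 1.35 ± 0.12, Col5a2 (type V) by 1.26 ± 0.09 and Col1a2 (the alpha 2 chain of type I) by 1.22 ± 0.14. Of 31 genes of glycosaminoglycan assembly 5 rose in each genotype, and 8 rose and 1 (Fam20b, -0.26) fell on average, with a median of 0.11. The 22 others did not pass. The 4 with the smallest p act on chondroitin or dermatan sulfate, as do many other genes of the list. They were the epimerases Dse (0.72 ± 0.08) and Dsel (0.58 ± 0.08) and the sulfotransferases Chst12 (0.64 ± 0.07) and Ust (0.61 ± 0.08). Over all genes the median averaged difference was -0.0008.

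Of 16 genes for proteases that mature or cleave SLRPs, counting the enhancers Pcolce and Pcolce2, 7 rose with the genotypes averaged. The list had a median of 0.25, and 2 of its genes fell (Tll2, -0.31, and Adamts5, -0.38). Mmp14, a membrane-bound collagenase, rose by 1.29 ± 0.13, Pcolce, an enhancer of procollagen processing, by 1.19 ± 0.09, the gelatinase Mmp2 by 1.07 ± 0.14 and Mmp3 by 0.77 ± 0.15. Of 7 genes for TGF-beta and its latent binding proteins 6 rose and 1 (Ltbp1, -0.43) fell, with a median of 0.90. Ltbp2 rose by 1.98 ± 0.15, Tgfb2 by 1.43 ± 0.10, Tgfb3 by 1.09 ± 0.13 and Tgfb1 by 0.90 ± 0.08. Of 14 receptors reported to bind SLRPs or the factors they hold, 7 rose and 3 fell, with a median of 0.23. The receptor subunit Tgfbr1 rose by 0.88 ± 0.10, the Toll-like receptor Tlr4 by 0.81 ± 0.10 and Met, the receptor of hepatocyte growth factor, by 0.64 ± 0.08, while the kinase Erbb4 (-0.63 ± 0.09), Kdr (-0.36) and Tgfbr3 (-0.62) fell. Between the genotypes, or for the difference of their responses, limma called 0 of the 86 genes of these lists and of the other SLRPs (4 after AB, 0 after Sham and 2 for the responses at an unadjusted p under 0.05).

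Markers of the cells that could supply this RNA moved as well. They are first given with the genotypes averaged, where 12.3% of all genes rose and 10.4% fell. Of 6 fibroblast markers 4 rose on average (Pdgfra, Tcf21, Col1a2 and Dpt), and Ddr2 and Gsn did not pass. Gsn, at -0.25, was the brightest of the 6 and weighs most in their sum. The log2 of the summed level of the 6 was 11.8 to 12.1 in CXCR5-/- AB and 11.5 to 12.2 in WT AB hearts, and 11.6 to 11.8 in CXCR5-/- Sham and 11.7 to 11.8 in WT Sham hearts. For 4 macrophage markers, of which Cd68, Adgre1 and Fcgr1 rose, it was 9.12 to 9.44, 9.13 to 9.40, 8.58 to 8.69 and 8.79 to 8.87 in the same order of groups. Cartilage and valve markers, of which Comp and Sox9 rose and 3 of 5 did not pass, summed to 9.04 to 9.56, 8.70 to 9.87, 8.24 to 8.51 and 7.92 to 8.37. Of 5 epicardial markers 4 rose (Upk3b, Msln, Upk1b and Krt19), with sums of 7.82 to 8.75, 7.87 to 8.59, 7.75 to 8.08 and 7.60 to 7.98. Of 5 markers of ventricular cardiomyocytes, the cells that make up most of the tissue mass, none rose and Myh6 and Tnni3 fell, with sums of 14.57 to 14.72, 14.68 to 14.74, 14.78 to 14.80 and 14.80 to 14.84. Of the remaining lists, 2 of 5 smooth muscle and pericyte markers rose (Acta2 and Rgs5) and Myh11 fell, 1 of 4 endothelial markers (Kdr) fell, 1 of 5 atrial markers (Dkk3) rose and neither of the 2 adipocyte markers nor Alb passed. In CXCR5-/- hearts alone 4 fibroblast, 3 macrophage and 1 cartilage or valve marker rose (8.28% of all genes). In WT hearts alone 2, 1 and 2 rose (5.1% of all genes). No epicardial, smooth muscle, endothelial or atrial marker passed in either genotype alone. Of the cardiomyocyte markers 2 fell in CXCR5-/- hearts (5.86% of all genes) and 0 in WT hearts. The part of all these lists in the SLRP results was not tested.

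To ask which members moved beyond or behind type I collagen, each was set against Col1a1 on the same array. Col1a1 (probe set 10380419) read 9.99, 9.77, 10.26 and 9.83 in CXCR5-/- AB and 9.66, 9.28, 9.78 and 10.46 in WT AB hearts. It read 8.43, 8.90 and 8.31 in CXCR5-/- Sham and 8.24, 8.35 and 8.20 in WT Sham hearts, so all AB arrays were above all Sham arrays. Relative to Col1a1, Fmod rose by 0.74 on the log2 scale with the genotypes averaged (0.68 in CXCR5-/- and 0.81 in WT hearts) and 7 members fell. Since Col1a1 was among the genes that rose most, 99.3% of all genes fell relative to it at an exact p under 0.05 and 0.1% rose, so the falls are no more frequent among the members than among all genes. In both genotypes the Fmod ratio of every AB array was above that of every Sham array.

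For Lum (change of ratio -0.13, exact permutation p = 0.578) and Aspn (0.01, exact p = 0.944) no difference from the change of Col1a1 was detected. The ratio fell by 0.52 for Bgn (exact p = 0.00163), by 0.54 for Prelp (0.00245), by 0.63 for Ecm2 (0.00408) and by 0.81 for Omd (0.00571). Omd lies near the background of the array, where a change is understated, so its lag behind Col1a1 cannot be read. It fell by 1.05 for Dcn, 1.14 for Ogn and 1.53 for Podn, which with Fmod had the smallest p that the 1225 exact two-sided permutations within genotypes can give, 0.000816. The 10 p values are not adjusted. All 8 were under 0.05 in every setting for which an exact p was computed. For the replicate block and the atrial covariate none was computed. Dcn was among the brightest probe sets (99.7th percentile), and whether its change was understated there was not tested. The level of a ratio depends on the probes, so only its change between groups can be read.

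**Figure D3:**
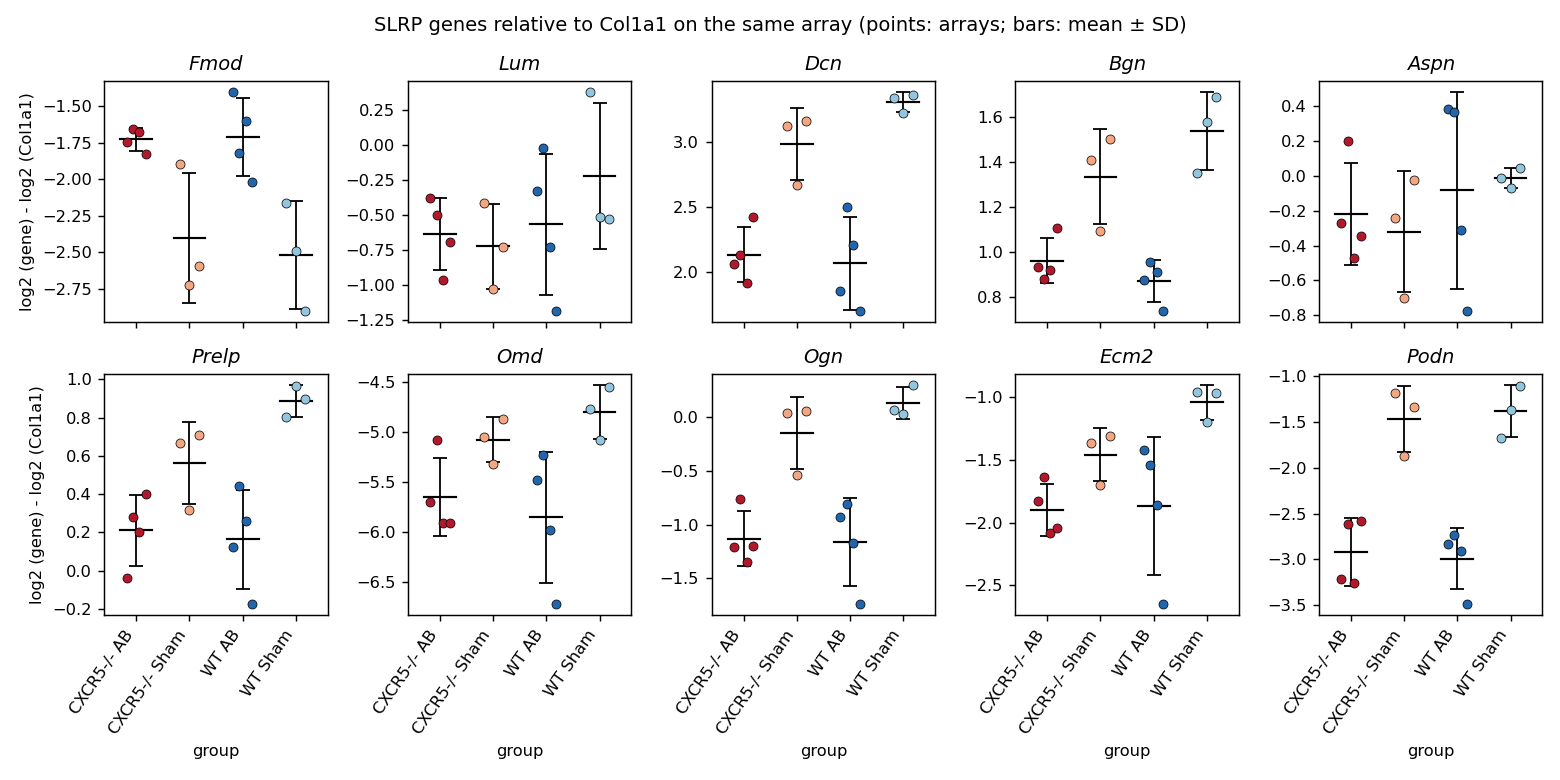
Log2 expression of each SLRP gene minus that of Col1a1 on the same array (vertical axes, each with its own range) in the 4 groups, with 1 point per array, a line at the mean and bars of ± SD (n = 4 AB, n = 3 Sham). The Fmod ratio is higher after AB (mean change 0.74), the Lum and Aspn ratios overlap, and the Dcn, Ogn and Podn ratios are lower on every AB array than on any Sham array of the same genotype.

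Arrays of 1 group also differ from each other, and members can be asked whether they rise and fall together there. Each array was taken as its deviation from its group mean, which removes the effects of AB and genotype, and deviations were correlated over the 14 arrays. Bgn followed Col1a1 most closely of the members. Its Pearson r was 0.90 (exact permutation p = 5.30e-04, adjusted p over all genes 0.282) and Spearman's rho 0.85 (exact p = 6.75e-04), and it ranked 21st of 19918 genes. Without WT AB replicates 2 and 4, the arrays farthest from the median of Col1a1, r was 0.71. Over the 8 AB arrays r was 0.98 (exact p = 0.00347) and over the 6 Sham arrays 0.53 (exact p = 0.194).

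Prelp came next, with r = 0.81 (exact p = 0.00246, adjusted p 0.282), rho = 0.74 (exact p = 0.0126) and r = 0.66 without the same arrays. For Fmod r was 0.64 (exact p = 0.0539, adjusted p 0.377) and rho 0.56 (exact p = 0.0808), with 0.86 over the AB arrays, 0.27 over the Sham arrays and 0.41 without the 2 farthest arrays. For Dcn r was 0.61 (exact p = 0.155, adjusted p 0.507), rho 0.67 (exact p = 0.0459), and 0.38 without those arrays. The other members were between -0.27 (Omd) and 0.31 (Ogn), with Aspn at -0.07 and Lum at 0.09. After adjustment over all genes 0 members passed, as did 0% of all genes, and 2 members, Bgn and Prelp, and 2680 of all genes were at an unadjusted p under 0.05.

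**Figure D4:**
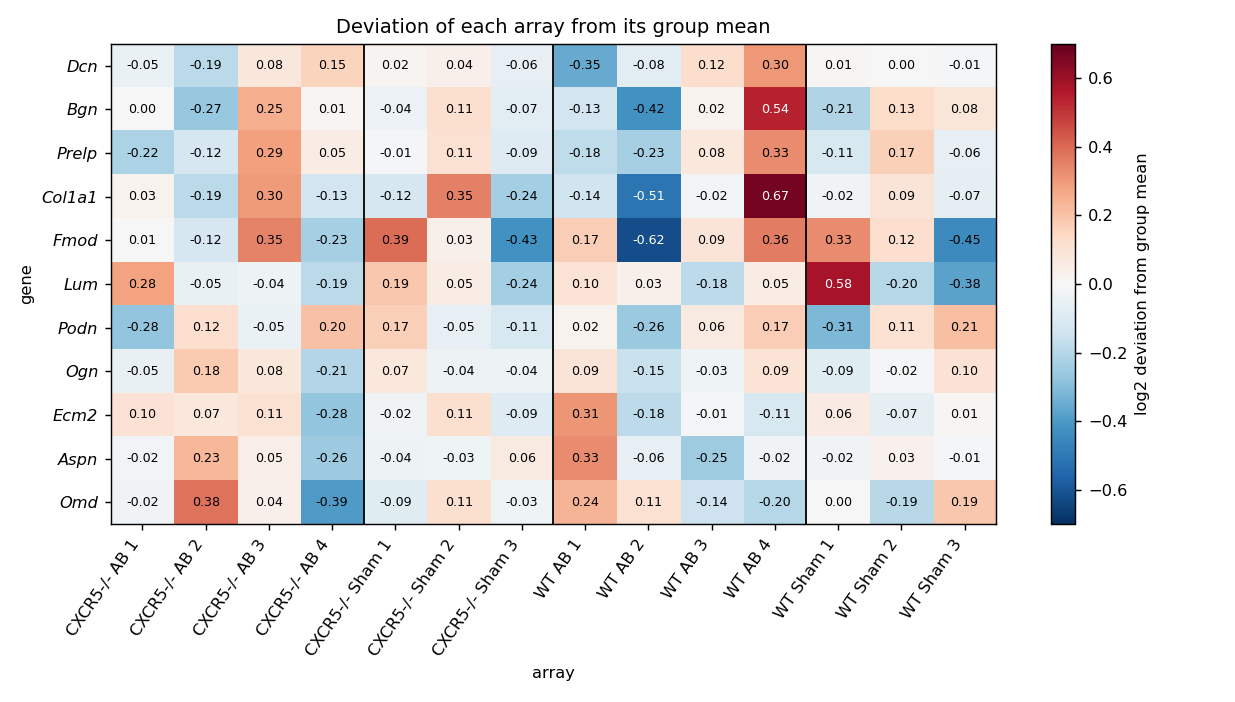
Deviation of each array (columns) from its group mean for the SLRP genes and Col1a1 (rows), in log2 units from blue (below the mean) to red (above). WT AB replicate 4 is high for Col1a1 (0.67), Bgn (0.54), Prelp (0.33) and Dcn (0.30) and low for Omd (-0.20), and CXCR5-/- AB replicate 4 is low for Omd (-0.39), Ecm2 (-0.28), Aspn (-0.26) and Ogn (-0.21) and high for Dcn (0.15).

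Among the members themselves 26 of 45 pairs had r above 0, with a median of 0.13 and a range of -0.76 to 0.86, and 5 pairs had an unadjusted exact p under 0.05. Of the correlations of all genes with the members 11.2% were at such a p, which is close to the share among the member pairs, so the pairs below are given as descriptions. The 4 chromosome 13 neighbours, whose promoters are shown above, were positive in all 6 of their pairs, with r of 0.56 to 0.74, and 1 pair was at an exact p under 0.05. Over the 8 AB arrays r was 0.62 to 0.85, while over the 6 Sham arrays 4 of the 6 pairs were negative and r ran from -0.76 (Aspn with Ecm2) to 0.62 (Omd with Ecm2). Without the 2 arrays farthest for either gene, r over the remaining arrays of all groups was 0.056 (Omd with Ogn) to 0.54. Aspn with Omd was the highest of them (exact permutation p = 0.0240, rho = 0.54 with exact p = 0.0894, r = 0.54 without the 2 arrays farthest for Aspn). For neighbours elsewhere r was -0.10 for Dcn with Lum and 0.50 for Prelp with Fmod (exact p = 0.104). Bgn, Prelp and Dcn, grouped here after their values were seen, formed the other positive set, with r of 0.69 to 0.86.

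Bgn with Prelp was the closest pair of all (r = 0.86, exact p = 0.00178, rho = 0.89 with exact p = 6.75e-04). Its adjusted p was 0.0452 among all genes correlated with Bgn, of which 4.86% passed, and 0.111 among those correlated with Prelp. Dcn with Prelp had r = 0.73 (exact p = 0.0380, rho = 0.81 with exact p = 0.0198). Dcn had r = -0.76 with Aspn (exact p = 0.0451, rho = -0.63 with exact p = 0.0603) and -0.73 with Omd (exact p = 0.00579, rho = -0.69 with exact p = 0.0408). Without WT AB replicates 1 and 4, the arrays farthest for Dcn, these were -0.82 and -0.76, and without the 2 arrays farthest for the partner -0.41 (Aspn) and -0.69 (Omd). With Ecm2 (r = -0.60, exact p = 0.145) and Ogn (-0.24, exact p = 0.491) Dcn was not at an exact p under 0.05, and over the 6 Sham arrays r with Dcn was -0.86 for Aspn, 0.08 for Omd, 0.03 for Ogn and 0.73 for Ecm2. Of the 12 pairs between Bgn, Prelp or Dcn and the chromosome 13 genes 10 were negative. Among Sham arrays Aspn and Dcn deviated from their group means by at most 0.06.

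**Figure D5:**
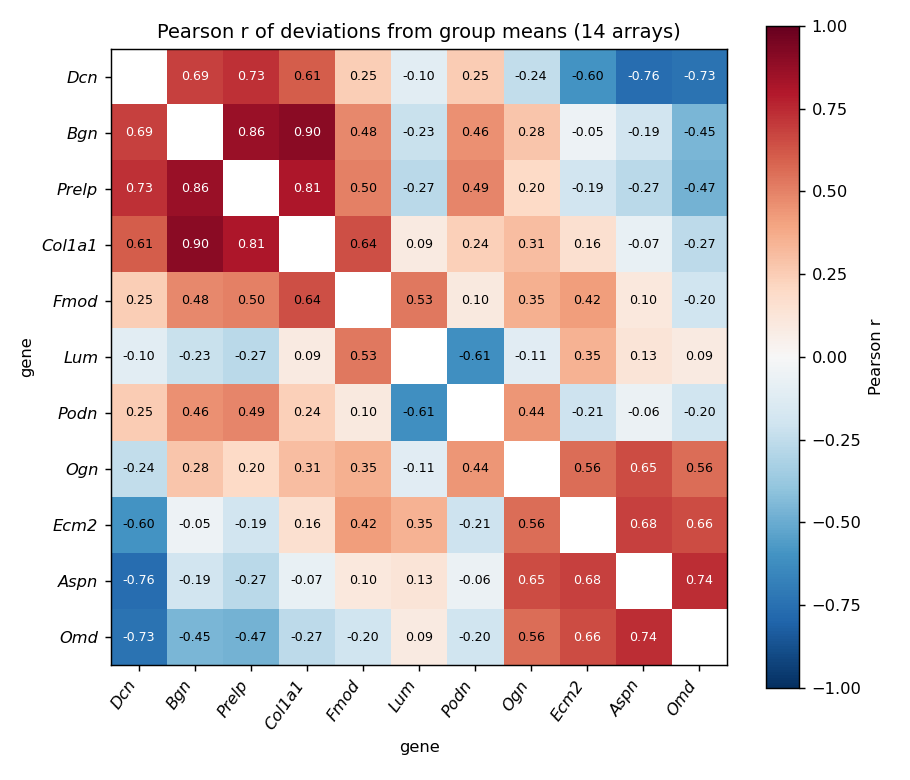
Pearson r (colour and number) of deviations from group means over 14 arrays for each pair of SLRP genes and Col1a1. Dcn, Bgn, Prelp and Col1a1 form a block at the upper left with r of 0.61 to 0.90, and Ogn, Ecm2, Aspn and Omd form one at the lower right with r of 0.56 to 0.74.

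Over the same 14 deviations, the 3 genes most like Fmod were Evc2 (r = 0.95), Col5a1 (0.94), a type V collagen chain, and Comp (0.93), a matrix protein of cartilage and tendon. For Bgn they were Hspg2 (0.95), which encodes perlecan, Notch2 (0.95) and Col1a2 (0.95), and these 3 passed after adjustment over all genes (adjusted p 0.0339, 0.0354 and 0.0339). Emp2 (0.96), Surf4 (0.94) and Slc25a23 (0.94) were most like Dcn, and Rsph6a (0.96), Dusp9 (0.95) and Tmem28 (0.93) most like Lum. None of those named for Fmod, Dcn or Lum passed, with adjusted p of 0.360, 0.203 and 0.288.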

How the data were processed

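Total RNA of left ventricles was hybridised to 1 array per mouse, and replicates are separate mice. After robust multi-array average the authors deposited a single table, in which each probe set has a log2 value on every array. The version and settings of that step were not given. The values were used as deposited and ran from 0.742 to 13.5. The number of arrays per group limits the precision. Of 34760 probe sets 21640 had 1 gene symbol, 1321 had several and 11799 were not listed with one. Symbols were updated through RefSeq (GRCm38.p6), and where a gene had more than 1 probe set (970 of 19919) the brightest on average stood for it. No 2 arrays shared more than 47 identical values.

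Groups were compared with limma 3.58.1 (lmFit and eBayes, R 4.3.3) in one fit of the 4 group means, with 10 residual and 7.12 prior degrees of freedom. P values were adjusted by Benjamini-Hochberg over all 19919 genes at a threshold of 0.05. Significance analysis of microarrays, which the study used, was written out with all permutations as an alternative at a q of 0.05. Correlations and ratios were tested by two-sided exact permutation within groups (20736 permutations, smallest p 4.8e-05) or within genotypes (1225) in Python 3.11.15 with numpy 2.4.6, and correlations were adjusted over the 19918 other genes. Steps were tested on simulated data.

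The members and gene lists were chosen with earlier results of these data known. Named genes are the members, the other SLRPs, Col1a1, Cxcr5, up to 4 genes of each list with the smallest p among those that passed with the genotypes averaged, the 3 genes most like Fmod, Lum, Dcn and Bgn (predicted, olfactory receptor and small RNA genes passed over), and markers where a result turns on them. Groups share replicate numbers, which the sources give no meaning. Arrays of the same number deviated together in all 4 pairs between CXCR5-/- AB and WT AB (r 0.125 to 0.220 across genes). They also did so in all 3 pairs between CXCR5-/- Sham and WT Sham (0.026 to 0.451), but not in every pair between other groups. Arrays of different number reached r of 0.456 between the AB groups and 0.412 between the Sham groups. The numbers are thus not shown to pair arrays, and the blocked fit is given only as an alternative. The other alternatives were variance models, array weights, a filter below the 30th percentile, scaling, normalization, averaged probe sets, fits restricted to the groups compared, a covariate of atrial transcripts, the Sham arrays of high Myl7 left out, and each array left out in turn. Promoter sequences are from RefSeq (GRCm38.p6).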

Additional observations from a re-analysis of the deposited data

Results flagged for a closer look

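Ecm2 read 7.79 on CXCR5-/- AB replicate 4, far from the other CXCR5-/- AB arrays at 8.14 to 8.17. Aspn (9.49), Omd (3.92) and Ogn (8.63), its neighbours on chromosome 13, were also lowest in that group on this array. Without it Ecm2 still rose in CXCR5-/- hearts, since the difference stayed between 0.93 and 1.07 whichever array was left out. Epyc, an SLRP outside the 10, read 5.02 on the same array, against 4.27 to 4.33 on the other CXCR5-/- AB arrays. Of 36 groups of 4 arrays tested 2 stood out in this way, and chance flags about 1 in 20.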

How the results depend on the processing

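No setting moved a count of called SLRPs by more than 1.5 times: with 9 called in CXCR5-/- hearts the settings gave 6 to 9, with 6 in WT hearts 6 to 7, with 9 for the genotypes averaged 8 to 9, and 0 between genotypes or for the responses in all. The filter on dim probe sets removes Omd, which accounts for the counts of 8. Calls of single members that turned were Dcn, Omd and Ogn in CXCR5-/- hearts without the Sham arrays of high Myl7, Omd in WT hearts under array weights, the replicate block, significance analysis of microarrays and without CXCR5-/- AB replicate 2 (adjusted p 0.0294), CXCR5-/- AB replicate 4 (0.0283) or WT AB replicate 4 (0.0369), and Dcn in WT hearts without WT AB replicate 1. The r of Fmod with Col1a1 passed an unadjusted 0.05 by exact permutation after quantile normalization (0.67), without the Sham arrays of high Myl7 (0.82) and without CXCR5-/- Sham replicate 1 (0.77), CXCR5-/- Sham replicate 2 (0.69) or WT Sham replicate 1 (0.69). The causes were not tested.

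Signs turned only for values that no setting called. For AB against Sham in CXCR5-/- hearts Podn was at 0.027 under array weights, at 0.073 without the Sham arrays of high Myl7 and at -0.11 to 0.054 with each array left out, and in WT hearts at -0.24 to 0.023. For the difference of responses Fmod was at 0.13 under array weights and 0.011 without the Sham arrays of high Myl7, and with each array left out Aspn was at -0.026 to 0.17 and Podn at -0.061 to 0.20. For the genotypes after AB Aspn was at -0.055 to 0.14 and Fmod at -0.056 to 0.27 with each array left out. After Sham, array weights gave -0.037 (Bgn) and -0.017 (Ogn), centring on the median -0.0032 (Omd) and -0.0015 (Ogn), quantile normalization 0.0048 (Dcn) and -0.0077 (Omd), the atrial covariate 0.031 (Aspn), and omission of the Sham arrays of high Myl7 -0.10 (Bgn), 0.023 (Aspn), -0.022 (Omd), -0.074 (Ogn) and -0.070 (Podn). With each array left out these were -0.027 to 0.14 for Bgn, -0.41 to 0.071 for Lum, -0.037 to 0.057 for Ogn, -0.092 to 0.10 for Omd and -0.10 to 0.042 for Prelp. The r with Col1a1 was 0.16 (Aspn) and 0.042 (Omd) under the replicate block and 0.035 (Aspn) under the atrial covariate, and with each array left out -0.18 to 0.050 (Aspn), -0.087 to 0.54 (Ecm2), -0.0018 to 0.19 (Lum) and -0.026 to 0.32 (Podn). The ratio to Col1a1 changed by -0.035 (Aspn, atrial covariate), 0.023 (Lum) and -0.14 (Aspn) without the Sham arrays of high Myl7, and by -0.081 to 0.13 (Aspn) and -0.22 to 0.022 (Lum) with each array left out.

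Over all genes, 2817 were called for AB in CXCR5-/- hearts, 4763 under array weights and 844 without the Sham arrays of high Myl7, which leaves fewer samples. In WT hearts 1856 were called, 3405 under array weights and as few as 1001 with an array left out. Between genotypes 9 were called after AB (4 to 34 over all settings) and 8 after Sham (1 to 31). The replicate block changed no other member's call. With 3 Sham arrays per genotype the intervals on genotype differences remain wide, and Omd lies near the background of the array.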
